A study of Mus musculus with 24 samples.

Results

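Glycolysis and hypoxia genes were followed through 2 mouse cell lines treated with carbon nanotubes, with a CpG oligonucleotide or with both. The members were given as a list of 38 gene symbols, covering glucose uptake and lactate export, glycolytic enzymes and their regulators, oxygen-sensing hydroxylases and other targets of the hypoxia-inducible factor (HIF). Of these, 37 have a row in the deposited read-count table, among 21669 genes in all. The exception is Pkm2, while the table holds a row for Pkm, which was kept among the other genes of the pathway. After the filter on low counts, 36 members were tested in K-Luc, where Aldoc was filtered, and 35 in RAW-Blue, where Egln3 and Apln were filtered.

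K-Luc is a luciferase-expressing KR158B mouse glioma line of C57BL/6 origin, and RAW-Blue is a line of RAW 264.7 mouse macrophages with a stably integrated SEAP (secreted phosphatase) reporter for NF-κB and AP-1. Each line had 5 groups: untreated, which received water; CpG, the oligonucleotide CpG-28; SWNT/LP, single-walled carbon nanotubes with lipid-PEG; CpG+SWNT/LP, both of these together; and SWNT/CpG, nanotubes functionalised with the oligonucleotide itself. Each ingredient was given at 10 µg/mL, and all groups shared the same glucose-rich, pyruvate-containing medium and a culture-insert migration assay. K-Luc had 2 untreated libraries and 3 per treated group and was treated for 17 to 19 h, while RAW-Blue had 2 libraries in every group and was treated for 47 to 50 h, in both cases after 24 h of adhesion. K-Luc cells were plated inside and outside the insert chambers and RAW-Blue cells only inside, so line, time and plating cannot be told apart. No group received an oligonucleotide without CpG. None received lipid-PEG alone either, so a nanotube effect below means that of SWNT/LP, in which nanotubes and lipid-PEG cannot be told apart.

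Glycolysis splits glucose into pyruvate, and lactate dehydrogenase turns pyruvate into lactate when it is not burned in mitochondria. HIF, a pair of an alpha subunit (Hif1a, Epas1) and a beta subunit (Arnt), raises transcription of most genes of this route when oxygen is low. In oxygenated cells the prolyl hydroxylases of the Egln family mark the alpha subunit for destruction through Vhl. Glioma cells and activated macrophages are both known for high glycolytic flux.

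Library totals ran from 13.3 to 24.1 M counts. Run 1 of 2 named in the labels holds K-Luc untreated replicate 1, CpG+SWNT/LP replicate 1 and SWNT/CpG replicate 1, and all other libraries are run 2. The labels do not say that replicates are separate cultures, and p-values therefore reflect how far these samples differ, which may be technical variation. In RAW-Blue all 12 macrophage markers reached 1 CPM (library-size-scaled counts, with TMM). In K-Luc 6 of 12 glial markers did, and Gfap, Olig1, Olig2, S100b, Fabp7 and Aqp4 stayed below. In RAW-Blue 3 of the 12 glial markers reached 1 CPM too. Glial markers summed to 5404 to 6355 CPM in K-Luc and 1568 to 2007 CPM in RAW-Blue. Macrophage markers summed to 11.2 to 17.0 CPM in K-Luc against 6042 to 6938 CPM in RAW-Blue. These are bulk libraries, in which fewer cells of a type and less RNA per cell cannot be told apart.

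Untreated levels are given in the authors' RPKM, reads scaled to transcript length and library size, which allow comparison between genes. In both lines the same 5 members ranked highest, in the order Ldha, Aldoa, Tpi1, Fam162a and Gpi1. Pkm, which was not counted as a member, stood above all of them, at 341.6 RPKM in K-Luc and 1010 RPKM in RAW-Blue. The ranks of Eno1, Pgk1 and Pgam1 are uncertain, because much of their transcript sequence recurs in other genes. Ldha, the lactate dehydrogenase chain that favours lactate, stood at 271.4 ± 23.1 RPKM in K-Luc and 918.7 ± 170.0 RPKM in RAW-Blue (SD, n = 2 each). These 2 intervals do not meet, and in the edgeR fit of both lines 29 of 37 members were higher and 5 lower in untreated RAW-Blue than in untreated K-Luc, with a median log2 difference of 1.80. Among all 13350 genes tested 77.9% were called, 37% higher and 40.9% lower.

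Single members set the lines further apart. The lactate exporter Slc16a3 had 0.65 RPKM in K-Luc and 146.4 RPKM in RAW-Blue, and the aldolase isoform Aldoc 0.1 and 58.9 RPKM. Adm, the vasodilator peptide adrenomedullin, had 1.05 and 41.15 RPKM. Apln, the peptide hormone apelin, and Egln3 stood at 6.0 and 5.95 RPKM in K-Luc and were listed at 0 in RAW-Blue. Bhlhe40, Ddit4 and Kdm3a were the 3 members that did not pass the test between the lines.

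The plot by library summarises all tested members before the effects of the agents are taken apart. For each library it takes the log2 CPM of each member minus that member's mean over the libraries of the line, and then the median over members. In K-Luc the 3 SWNT/LP libraries lay at 0.34, 0.26 and 0.27, above untreated at -0.02 and 0.00. The 3 CpG libraries lay at -0.22, -0.19 and -0.23, and those with CpG+SWNT/LP lay between -0.04 and 0.00. In RAW-Blue the untreated libraries were highest at 0.21 and 0.12, the SWNT/LP libraries lay at 0.11 and 0.07, and all groups with the oligonucleotide lay below 0.

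**Figure D1:**
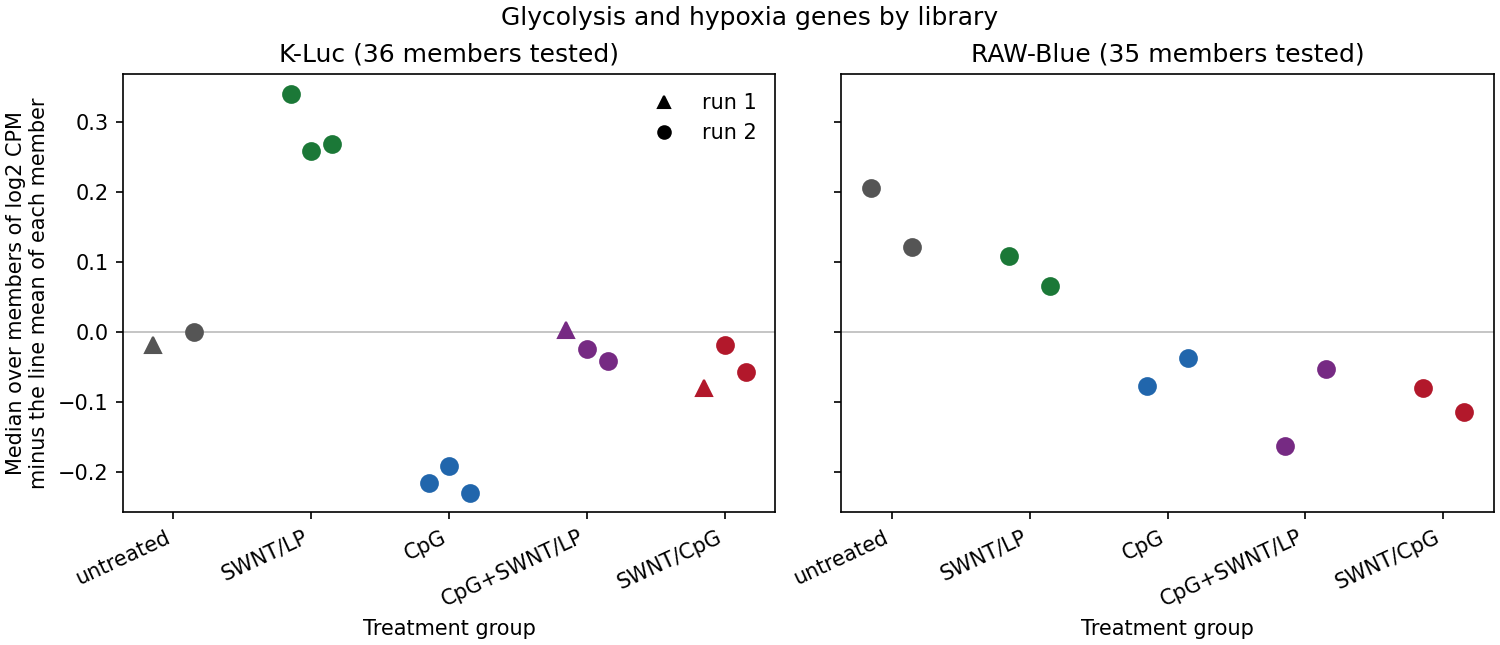
Median over the tested members of the log2 CPM of a library minus the member's mean over the line's libraries (vertical axis), by treatment group (horizontal axis), 1 point per library, with K-Luc and RAW-Blue in separate panels. In K-Luc the SWNT/LP libraries at 0.26 to 0.34 sit above all others and the CpG libraries at -0.23 to -0.19 below all others.

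In K-Luc cells nanotubes with lipid-PEG were accompanied by higher mRNA of glycolysis and hypoxia genes and of few others. Averaged over the presence of CpG, 17 of 36 members rose and none fell (edgeR, adjusted p under 0.05), while 0.564% of all 12420 genes tested were called, 0.233% higher and 0.33% lower. The 17 members are the larger part of the 29 genes that rose in the whole table. The members' median log2 fold change was 0.23, beside 0.00 over all genes. The list was drawn up with results of these libraries known, so these counts describe it and are no independent test of it.

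Promoter sequence of the members with the smallest adjusted p in this comparison is shown because HIF binds a short core motif next to its target genes. The 250 bases upstream of the RefSeq start are given 5′ to 3′ on the gene's strand (build GRCm38.p6, while the counts were made on mm9). Capitals mark ACGTG or GCGTG on either strand, and CACGTG, which reads as ACGTG on both strands, counts as 2 matches. Pdk1 lies at chr2:71872974-71873223 on the plus strand with 1 match, Pfkl at chr10:78009808-78010057 on the minus strand with 1, Bnip3 at chr7:138909507-138909756 on the minus strand with 5, and Ldha at chr7:46845554-46845803 on the plus strand with 5. For Pdk1 and Ldha the first of 2 listed starts was used.
Pdk1: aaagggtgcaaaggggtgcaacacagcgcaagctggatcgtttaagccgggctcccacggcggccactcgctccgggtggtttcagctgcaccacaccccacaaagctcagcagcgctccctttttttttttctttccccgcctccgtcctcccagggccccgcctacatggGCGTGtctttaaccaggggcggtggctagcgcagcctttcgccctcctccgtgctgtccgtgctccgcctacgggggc
Pfkl: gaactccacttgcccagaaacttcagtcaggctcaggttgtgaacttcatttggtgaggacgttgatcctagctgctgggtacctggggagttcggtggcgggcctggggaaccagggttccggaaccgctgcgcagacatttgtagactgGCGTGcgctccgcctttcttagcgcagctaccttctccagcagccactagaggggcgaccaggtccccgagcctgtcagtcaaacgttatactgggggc
Bnip3: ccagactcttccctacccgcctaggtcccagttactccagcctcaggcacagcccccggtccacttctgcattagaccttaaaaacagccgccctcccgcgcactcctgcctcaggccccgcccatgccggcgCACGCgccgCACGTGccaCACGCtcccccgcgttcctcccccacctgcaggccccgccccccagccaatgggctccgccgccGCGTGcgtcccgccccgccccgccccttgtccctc
Ldha: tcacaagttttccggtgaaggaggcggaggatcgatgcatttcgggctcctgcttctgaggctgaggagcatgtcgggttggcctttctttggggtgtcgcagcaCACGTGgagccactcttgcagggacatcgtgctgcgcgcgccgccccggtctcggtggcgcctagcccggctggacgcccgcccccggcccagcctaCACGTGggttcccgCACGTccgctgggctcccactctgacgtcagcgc

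The core motif was common among the members. Of the 34 members found in the RefSeq promoter table, 28 (82.4%) held at least 1 match in these 250 bases. Of all 27025 listed genes 38.6% did, and among those with at least 1 CPM in every untreated K-Luc library 59.0%. The share did not tell risen members from the rest: 14 of the 17 that rose with nanotubes held a match, and so did 14 of the other 17. A match is a description of the letters and was not tested for binding.

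The clearest rise was that of Pdk1, the kinase that shuts pyruvate out of mitochondrial oxidation by inactivating pyruvate dehydrogenase. Its level was 71.9 and 71.0 CPM untreated and 116, 102.5 and 96.5 CPM with SWNT/LP. With CpG alone it was 56.4, 59.4 and 55.5 CPM, and with CpG+SWNT/LP 80.2, 74.8 and 74.2 CPM. Every library with nanotubes lay above every library of the matching group without them. The averaged log2 fold change was 0.49 ± 0.04 (SE, adjusted p = 2.09e-05), a level 1.41 times that without nanotubes.

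Pfkl encodes the liver-type subunit of phosphofructokinase, the committed step of glycolysis. It stood at 175.5 and 165.0 CPM untreated and at 263, 218 and 229.8 CPM with SWNT/LP. CpG libraries held 131, 137 and 132 CPM, and CpG+SWNT/LP libraries 179.7, 170.0 and 173 CPM. Both contrasts were free of overlap, and the averaged log2 fold change was 0.44 ± 0.04 (adjusted p = 2.5e-05).

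Ldha had 730.3 and 826 CPM untreated and 996.5, 1042 and 1028 CPM with SWNT/LP. It had 569, 625 and 559 CPM with CpG and 675, 716.5 and 689 CPM with CpG+SWNT/LP. All nanotube libraries were above their matching group, and the averaged log2 fold change was 0.31 ± 0.03 (adjusted p = 0.000117). Pdk1, Pfkl and Ldha were the members called both for nanotubes alone and for nanotubes on top of CpG, 3 of the 10 and 3 of the 4 called.

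Other enzymes of the route passed as well. Tpi1, triose phosphate isomerase, went from 362 and 386 CPM to 487, 466 and 456 CPM with SWNT/LP, and from 293, 290.5 and 269 CPM with CpG to 338, 328 and 324 CPM with CpG+SWNT/LP. No library crossed its matching group, and the averaged log2 fold change was 0.27 ± 0.03 (adjusted p = 0.000538). Aldoa (0.24 ± 0.03, adjusted p = 0.00139) and Pgam1 (0.35 ± 0.06, adjusted p = 0.00346) also passed, which makes 5 of 12 enzymes, and all 12 had positive fold changes. Of uptake and export, the glucose transporter Slc2a1 rose by 0.15 ± 0.03 on the log2 scale (adjusted p = 0.0401) and Slc16a3 by 0.82 ± 0.15 (adjusted p = 0.0152). The call of Slc2a1 was lost under 13 of 18 alternatives, with an adjusted p of up to 0.525. Slc16a3 is a low gene here, at 2.92 and 2.08 CPM untreated and 5.99, 4.10 and 4.32 CPM with SWNT/LP, while Slc2a3 had 0.08 and did not pass.

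Among the HIF targets outside glycolysis 8 of 16 rose. Bnip3, a mitochondrial protein of the BH3-only kind that promotes removal of mitochondria, had 30.8 and 28 CPM untreated and 45.6, 44.2 and 42.1 CPM with SWNT/LP. With CpG it had 23.1, 24.3 and 21.6 CPM, and with CpG+SWNT/LP 31.7, 28.4 and 26.3 CPM. The 2 contrasts are free of overlap but unequal in size: the log2 fold change was 0.69 ± 0.08 without CpG (adjusted p = 0.00122) and 0.25 ± 0.07 with it, which did not pass (adjusted p = 0.385). The averaged value was 0.47 ± 0.05 (adjusted p = 0.000104). The test of the difference between the 2 gave an unadjusted p of 0.00114 and an adjusted p of 0.937 in edgeR.

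Fam162a, a mitochondrial protein induced by hypoxia, had 65.7 and 73.4 CPM untreated and 93.6, 94.3 and 88.5 CPM with SWNT/LP. With CpG it had 47.1, 50.4 and 49.5 CPM and with CpG+SWNT/LP 61.1, 57.0 and 57.0 CPM. Its averaged log2 fold change was 0.33 ± 0.04 (adjusted p = 0.000327), with no overlap in either contrast.

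Apln had 25.7 and 30.7 CPM untreated, and 40.1, 42.0 and 45.0 CPM with SWNT/LP. With CpG it had 34.9, 38.7 and 37.2 CPM and with CpG+SWNT/LP 40.5, 44.5 and 44.1 CPM. It rose by 0.39 ± 0.04 on the log2 scale (adjusted p = 0.00019), again with no library crossing its matching group. Unlike Pdk1, Pfkl and Ldha, its CpG libraries stood above its untreated libraries.

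Egln3, a HIF prolyl hydroxylase that is itself a HIF target, had 24.5 and 22.9 CPM untreated and 33.2, 29.4 and 34.1 CPM with SWNT/LP. It had 17.3, 17.1 and 17.2 CPM with CpG and 25.4, 20.4 and 24.9 CPM with CpG+SWNT/LP. The averaged log2 fold change was 0.46 ± 0.06 (adjusted p = 0.000592), and both contrasts were free of overlap. The remaining targets that rose were Ak4, a mitochondrial adenylate kinase (0.43 ± 0.06, adjusted p = 0.00152), the collagen prolyl hydroxylases P4ha1 (0.21 ± 0.03, adjusted p = 0.00141) and P4ha2 (0.25 ± 0.04, adjusted p = 0.0043), the histone demethylase Kdm3a (0.21 ± 0.03, adjusted p = 0.00286) and the surface carbonic anhydrase Car9 (0.74 ± 0.15, adjusted p = 0.0285). Car9 is near the detection limit, at 1.42 and 1.24 CPM untreated and 3.40, 3.05 and 2.63 CPM with SWNT/LP.

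**Figure D2:**
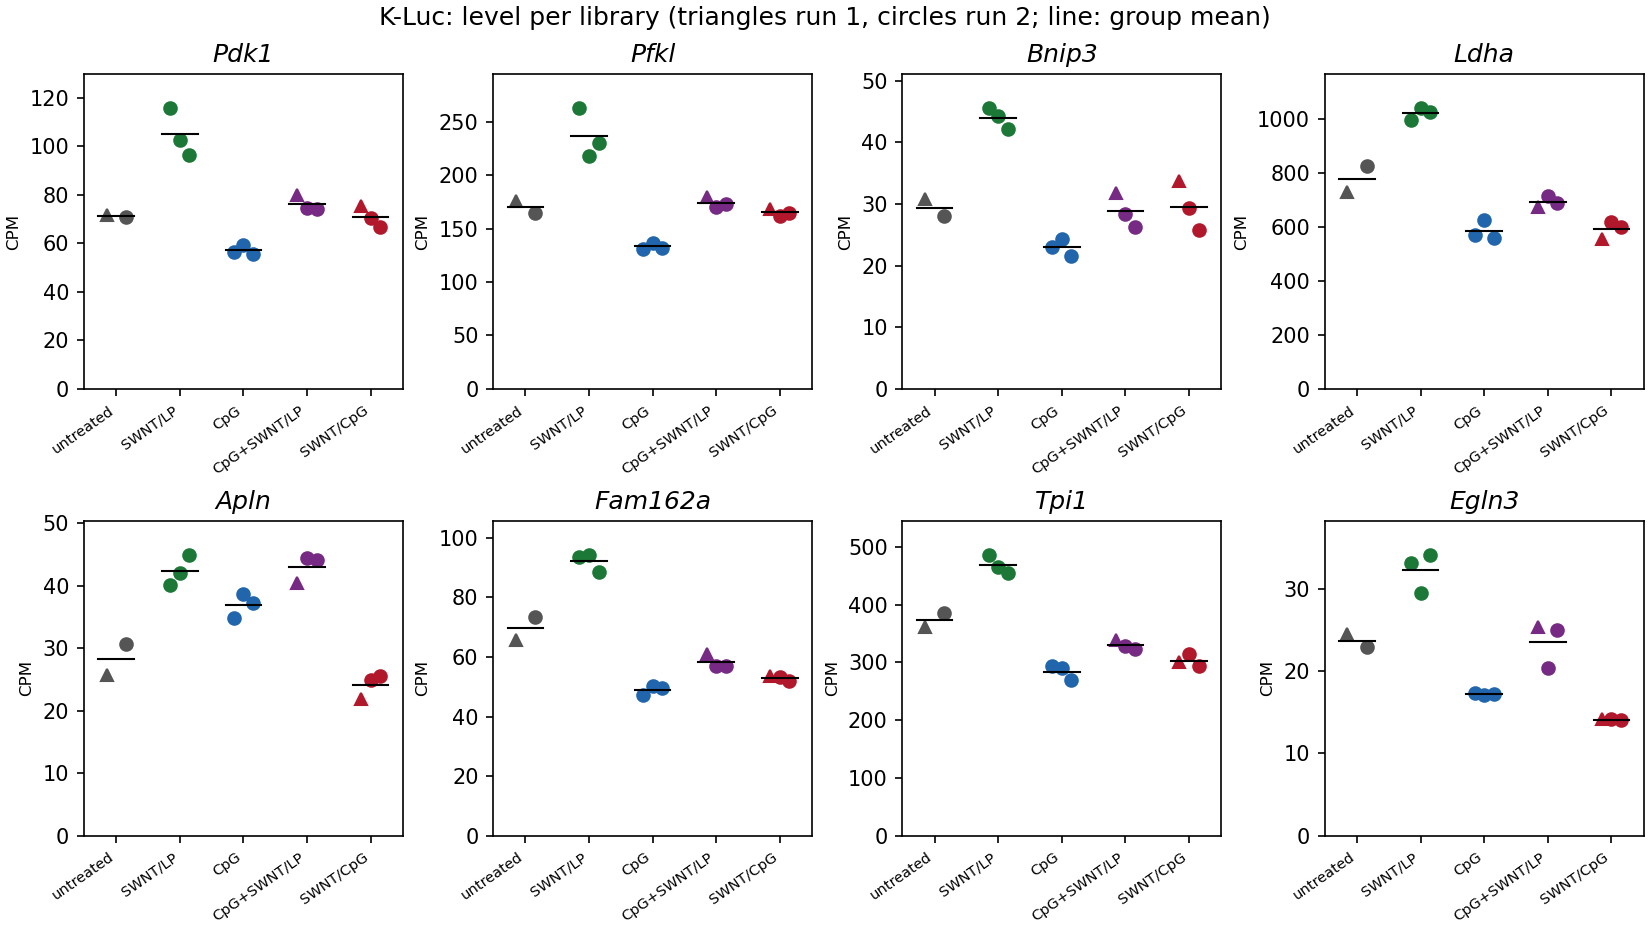
CPM (vertical axis, from 0) in each K-Luc library by treatment group (horizontal axis) for the 8 members with the smallest adjusted p for nanotubes averaged over CpG, 1 point per library and a bar at the group mean. For Pdk1 the SWNT/LP libraries at 96.5 to 116 CPM lie above the untreated libraries at 71.0 and 71.9 CPM, and the CpG+SWNT/LP libraries at 74.2 to 80.2 CPM above the CpG libraries at 55.5 to 59.4 CPM.

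The nanotube effect can also be read from 2 sets of libraries that share none. Both sets share the fit's run term and estimate of the spread. Same-numbered libraries across the sets correlated at -0.034 to 0.507 in their deviations from group means, so the sets are not fully independent. SWNT/LP against untreated gave 10 risen members of 36 and none fallen, where 0.129% of all genes were called (0.0886% higher and 0.0403% lower). CpG+SWNT/LP against CpG gave 4 risen and none fallen, where 0.266% of all genes were called (0.0564% higher and 0.209% lower). In these 2 comparisons 32 of 36 members had positive fold changes in both and none had negative ones in both. The fold change was the larger without CpG for 32 members, but no member passed the test of interaction in edgeR, where 0% of all genes were called, or in DESeq2. At an unadjusted p under 0.05 the interaction had 4 members, Apln, Bnip3, Car9 and P4ha2, for which that share of 0% is no background.

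Of the oxygen-sensing machinery itself Egln3 rose, as given above, and the other mRNAs did not pass. With nanotubes averaged over CpG the log2 fold change was 0.14 ± 0.04 for Egln1 (adjusted p = 0.164), 0.02 ± 0.03 for Hif1a, 0.04 ± 0.13 for Epas1, 0.05 ± 0.03 for Arnt, 0.02 ± 0.04 for Vhl, -0.01 ± 0.03 for the asparaginyl hydroxylase Hif1an and 0.06 ± 0.05 for Egln2. HIF is set mainly by protein stability, which these libraries do not measure. Of 72 other tested genes of the pathway 4 rose and 1 fell: Vegfa, the angiogenic growth factor (0.24 ± 0.03, adjusted p = 0.00126), Pgm2 (0.26 ± 0.04, adjusted p = 0.00586), the transferrin receptor Tfrc (0.29 ± 0.06, adjusted p = 0.0253) and the demethylase Kdm4b (0.20 ± 0.04, adjusted p = 0.0411) rose, and Ier3, an early response gene, fell by 0.66 ± 0.10 on the log2 scale (adjusted p = 0.00523). Of 20 proliferation genes none passed.

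These K-Luc nanotube counts depend on few libraries. With run 2 alone, where untreated is 1 library, fewer members rose in each comparison, on average over CpG all of them among the 17. Fewer of all genes were called there too, on average and with CpG present. With either untreated library left out, which leaves 1, SWNT/LP against untreated called fewer members, and calls over all genes in that comparison also moved with 1 library left out. For nanotubes on top of CpG the count was 1 without CpG replicate 3, CpG+SWNT/LP replicate 1 or CpG+SWNT/LP replicate 2. It was 0 without CpG+SWNT/LP replicate 3. Over all genes that comparison called 4 to 30 with 1 library left out, against 33 with every library. A changed member count alone is therefore no result about the members.

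**Figure D3:**
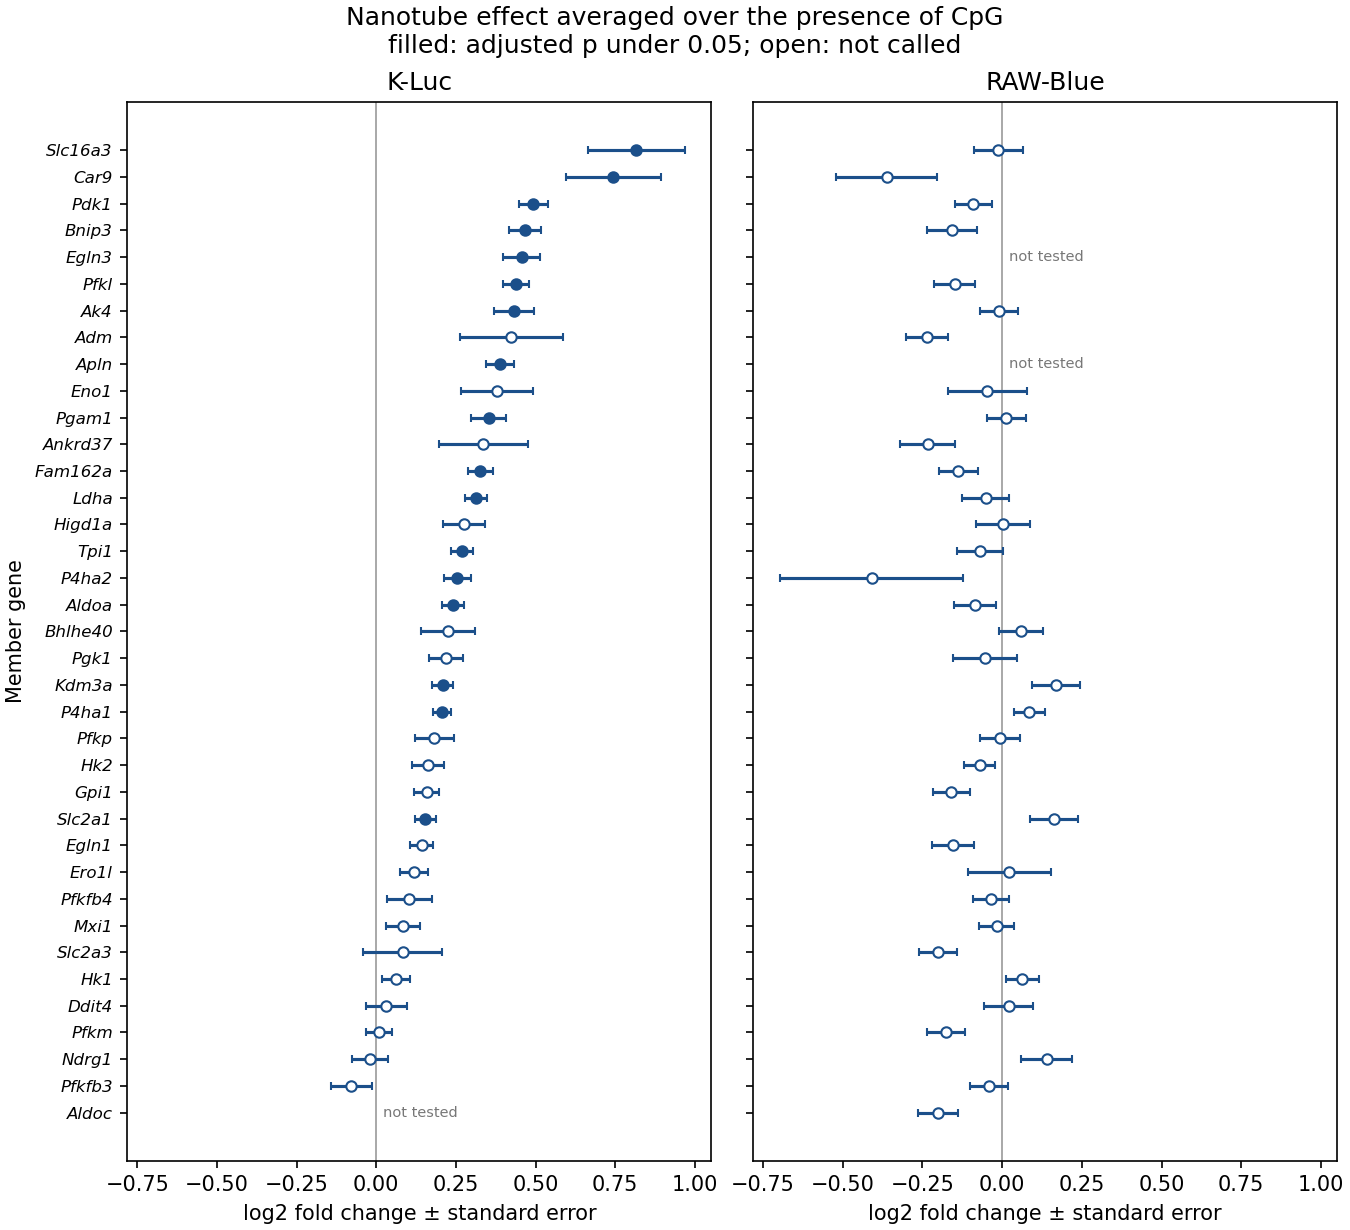
Log2 fold change with nanotubes, averaged over the presence of CpG (horizontal axis, bars are 1 standard error), for each member (vertical axis), K-Luc on the left and RAW-Blue on the right, filled where the adjusted p is under 0.05. In K-Luc 17 points are filled, all to the right of 0, and in RAW-Blue none is.

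Most members were lower with CpG in K-Luc. Averaged over the presence of nanotubes 24 of 36 members fell and 4 rose, with a median log2 fold change of -0.31. CpG changed much of the transcriptome: 51.9% of all genes were called, 25.9% lower and 26% higher. The nanotube and CpG comparisons share libraries, so their values are given side by side only. For Pdk1 they were 0.49 ± 0.04 with nanotubes and -0.38 ± 0.04 with CpG, for Pfkl 0.44 ± 0.04 and -0.39 ± 0.04, and for Ldha 0.31 ± 0.03 and -0.49 ± 0.03.

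By role, all 3 genes of uptake and export fell, as did 9 of 12 enzymes, 1 of 3 regulators (Pdk1), both hydroxylases and 9 of 16 other targets. Slc2a1, the main glucose transporter, had 108.5 and 114 CPM untreated and 94.6, 97.7 and 96.1 CPM with CpG. It had 136, 130.3 and 128 CPM with SWNT/LP and 95.9, 108 and 103 CPM with CpG+SWNT/LP. It fell by 0.29 ± 0.03 on the log2 scale (adjusted p = 1.94e-06), with no overlap in either contrast.

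Ak4 had 23.4 and 26.3 CPM untreated and 16.1, 20.2 and 19.3 CPM with CpG, and 33.8, 36.7 and 40.1 CPM with SWNT/LP against 22.2, 23.0 and 23.6 CPM with CpG+SWNT/LP. It fell by 0.56 ± 0.06 (adjusted p = 2.14e-06). Among the genes with the strongest evidence were also Fam162a (-0.59 ± 0.04, adjusted p = 1.57e-08), Ldha (adjusted p = 1.76e-08) and Tpi1 (-0.45 ± 0.03, adjusted p = 4.18e-08), whose libraries are given above.

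Pgam1, phosphoglycerate mutase, had 34.8 and 38.8 CPM untreated and 28.7, 31.1 and 29.4 CPM with CpG, and it fell by 0.48 ± 0.06 (adjusted p = 3.85e-06). Pgk1, phosphoglycerate kinase, had 29.7 and 36.2 CPM untreated and 25.6, 25.7 and 23.7 CPM with CpG, and it fell by 0.45 ± 0.05 (adjusted p = 4.09e-06). Their values are uncertain, because 41.5% of the 50-base stretches of Pgam1 transcripts and 68.0% of those of Pgk1 recur in other genes, and for Eno1 the share is 72.2%. Smaller shares were found for Bnip3 (21.9%), Gpi1 (19.3%), Ldha (16.7%), Aldoa (13.5%), Ak4 (11.3%), Tpi1 and Higd1a (7.51% each), and below 1% for all other members.

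The 4 members that rose with CpG were Adm (0.52 ± 0.16, adjusted p = 0.013), Ndrg1, a stress-responsive gene of differentiation (0.43 ± 0.06, adjusted p = 1.4e-05), Apln (0.19 ± 0.04, adjusted p = 0.0022) and the muscle-type phosphofructokinase Pfkm (0.13 ± 0.04, adjusted p = 0.0107). Phosphofructokinase mRNA differed in makeup between groups. Pfkl made 57.5% ± 1.1 of the summed RPKM of its 3 subunits untreated (SD, n = 2), 64.3% ± 0.7 with SWNT/LP and 50.1% ± 1.9 with CpG (SD, n = 3 each). It made 56.1% ± 0.7 with CpG+SWNT/LP. The ranges of the SWNT/LP and CpG libraries lie on either side of the untreated ones and do not overlap them, and these shares were not tested further.

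Members fell with CpG both with and without nanotubes. CpG against untreated gave 18 fallen and 3 risen, where 36.2% of all genes were called, 18.4% lower and 17.9% higher. CpG+SWNT/LP against SWNT/LP gave 23 fallen and 1 risen, where 30.8% were called, 15.8% lower and 15% higher. These 2 comparisons share no library, though they share the fit's run term and estimate of the spread. In both, 27 members had negative fold changes, and 18 were called in both, of 21 and of 24. Without untreated replicate 2, which leaves 1 untreated library, fewer members were called for CpG against untreated. Calls over all genes in that comparison also fell with 1 library left out, so the drop alone is no result about the members.

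Of the 72 other pathway genes 25 rose and 16 fell with CpG, so the wider list was mixed where the members mostly fell. Vegfa (-0.45 ± 0.03, adjusted p = 4.44e-08), the macrophage migration inhibitory factor Mif (-0.48 ± 0.04, adjusted p = 1.3e-07), the pyruvate kinase Pkm (-0.31 ± 0.03, adjusted p = 1.35e-07) and Tfrc (-0.73 ± 0.06, adjusted p = 1.05e-07) had the smallest adjusted p-values. Hif1a fell by 0.09 ± 0.03 (adjusted p = 0.0157), while Arnt (0.18 ± 0.03, adjusted p = 9.64e-05) and Epas1 (0.63 ± 0.13, adjusted p = 0.00106) rose. Vhl, Hif1an and Egln2 did not pass, at -0.03 ± 0.04, -0.05 ± 0.03 and 0.09 ± 0.05.

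Other gene groups moved with CpG in the same libraries. All 20 proliferation genes fell, with a median log2 fold change of -0.52, and their summed level was 6476 to 7382 CPM untreated and 4447 to 5110 CPM with CpG. With SWNT/LP it was 6409 to 7496 CPM, and with CpG+SWNT/LP 4570 to 5356 CPM. Of 11 fibroblast and vascular markers 5 reached 1 CPM, and Pecam1, Cdh5, Kdr, Tek, Dcn and Lum did not. The markers summed to 6064 to 7517 CPM untreated, 5761 to 7491 CPM with SWNT/LP, 9470 to 10520 CPM with CpG and 9250 to 9990 CPM with CpG+SWNT/LP. The part of these changes in the fall of the glycolysis genes was not tested.

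**Figure D4:**
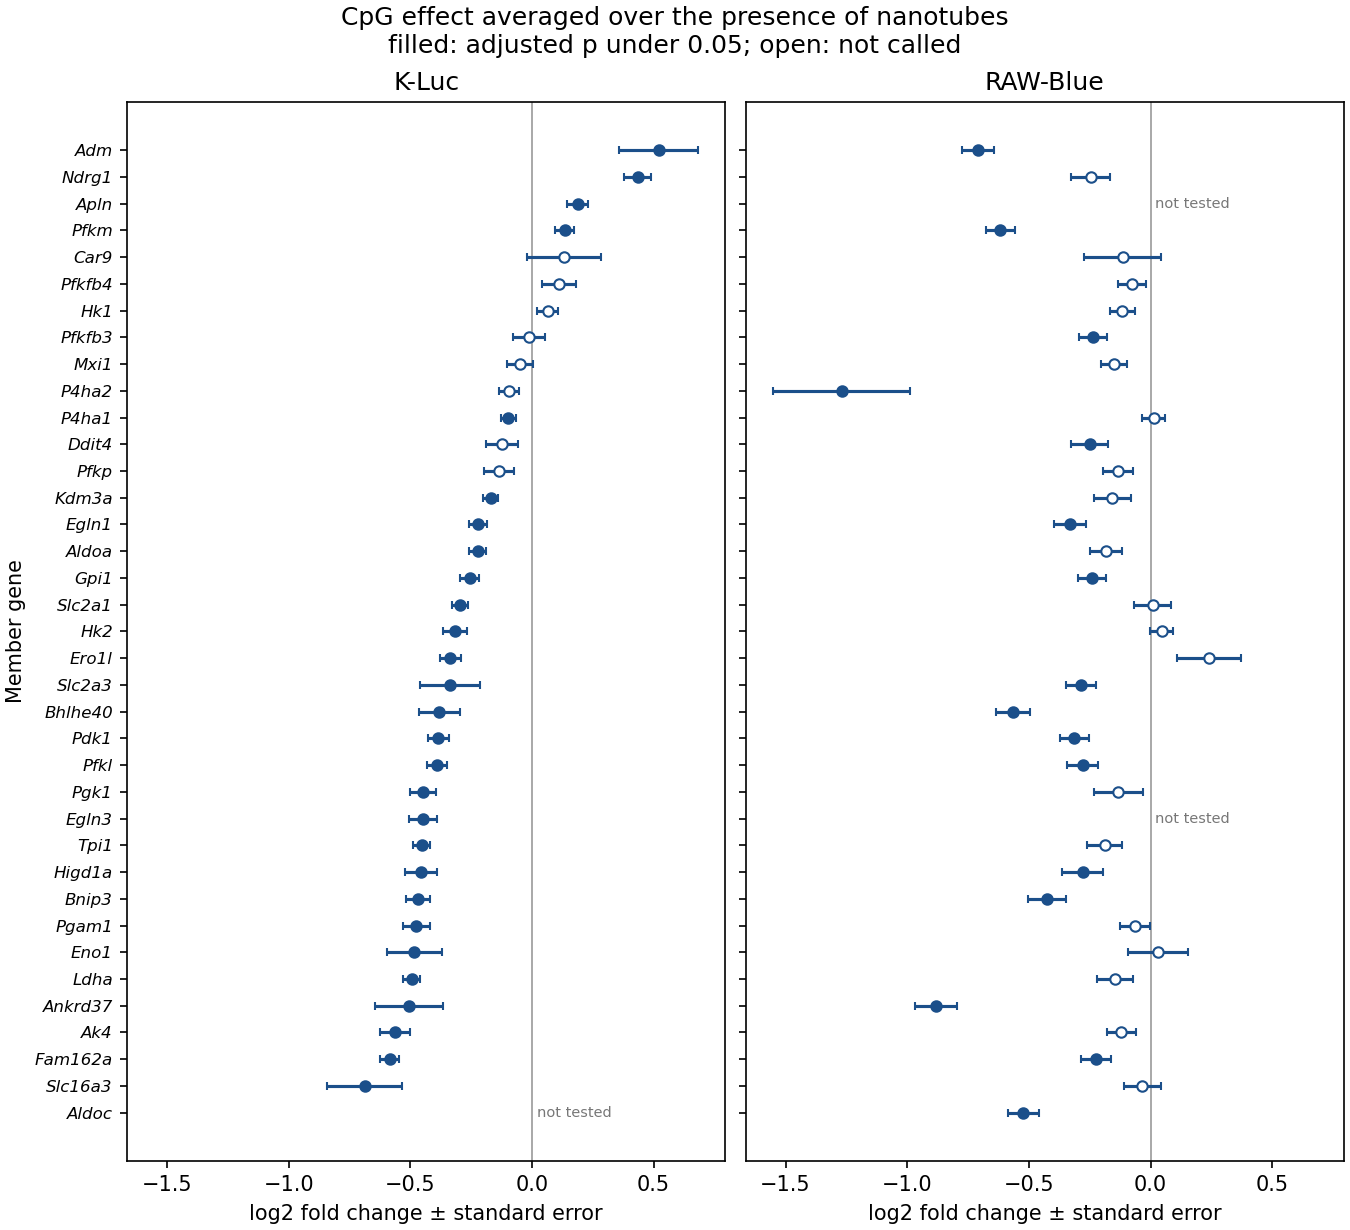
Log2 fold change with CpG, averaged over the presence of nanotubes (horizontal axis, bars are 1 standard error), for each member (vertical axis), K-Luc on the left and RAW-Blue on the right, filled where the adjusted p is under 0.05. In K-Luc 24 filled points lie left of 0 and 4 right of it, and in RAW-Blue all 16 filled points lie left of 0.

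With nanotubes functionalised with the oligonucleotide 6 of 36 K-Luc members rose and 6 fell against untreated, 16.7% each way. That is below the background, where 43.1% of all genes were called, 21.8% higher and 21.3% lower, so the number called sets the members apart in neither direction. Their median log2 fold change was -0.09. The risen members were all among the HIF targets outside glycolysis, 6 of 16. The fallen ones were 3 of 12 enzymes (Ldha, Tpi1 and Pgk1), Egln3, Fam162a and Apln. Without untreated replicate 2, which leaves 1 untreated library, fewer members were called. Calls over all genes also fell with 1 library left out, so the drop alone is no result about the members. In the same comparison all 20 proliferation genes fell, with a median log2 fold change of -0.95 and a summed level of 3438 to 3924 CPM against 6476 to 7382 CPM untreated. Of 7 tested fibroblast and vascular markers 4 rose, and of 8 tested glial markers 3 fell, with sums of 5404 to 5652 CPM against 5968 to 6018 CPM untreated. The part of these lists in the members' changes was not tested.

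Ndrg1 had 74.7 and 68.7 CPM untreated and 123, 129 and 130.0 CPM with SWNT/CpG, a log2 fold change of 0.84 ± 0.09 (adjusted p = 1.61e-06). Its CpG+SWNT/LP libraries lay between, at 99.01, 95.3 and 90.1 CPM, below every SWNT/CpG library. P4ha2 had 57.4 and 54.5 CPM untreated and 68.5, 66.5 and 74.6 CPM with SWNT/CpG, and rose by 0.32 ± 0.06 (adjusted p = 0.000697). P4ha1 had 224.5 and 228 CPM untreated and 255, 257 and 249 CPM with SWNT/CpG, and rose by 0.17 ± 0.04 (adjusted p = 0.00538). For all of these the SWNT/CpG libraries lay above the untreated ones.

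Bhlhe40, a transcriptional repressor induced by hypoxia, had 104.6 and 103.8 CPM untreated and 149, 143 and 138 CPM with SWNT/CpG, and rose by 0.47 ± 0.13 (adjusted p = 0.0106). In CpG+SWNT/LP it had 95.1, 98.0 and 86.2 CPM, below untreated. Adm (0.93 ± 0.26, adjusted p = 0.00855) and Car9 (0.81 ± 0.25, adjusted p = 0.0151) also rose, from 1.72 and 2.74 CPM and from 1.42 and 1.24 CPM.

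Egln3 had 14.1, 14.1 and 14.04 CPM with SWNT/CpG, below every other K-Luc library, and fell by 0.73 ± 0.10 against untreated (adjusted p = 1.64e-05). Ldha had 555.5, 619.7 and 599.8 CPM and fell by 0.41 ± 0.05 (adjusted p = 8.45e-06). Pdk1 was at 75.6, 70.4 and 66.8 CPM, around its untreated libraries, with a log2 fold change of 0.00 ± 0.07 that did not pass.

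CpG+SWNT/LP holds the same 2 ingredients with lipid-PEG in addition, so it was compared with SWNT/CpG. Of the members 4 were higher and 4 lower with SWNT/CpG, where 17.7% of all genes were called, 8.54% higher and 9.12% lower, close to the members' 11.1% each way. Same-numbered libraries of these 2 groups deviated together, with correlations of 0.501, 0.231 and 0.314. Replicate 1 is run 1 in both groups, so there number and run cannot be told apart. Among run 2 libraries, differently numbered pairs correlated at 0.186 and 0.148. With the replicate number as a block 6 members were higher and 9 lower, where 4009 of all 12420 genes were called, against 2194 without it. Apln differed most clearly, at 21.9, 24.98 and 25.5 CPM with SWNT/CpG against 40.5, 44.5 and 44.1 CPM with CpG+SWNT/LP, a log2 difference of -0.83 ± 0.06 (adjusted p = 1.87e-07). Egln3 (-0.73 ± 0.08, adjusted p = 1.4e-05), Ldha (-0.23 ± 0.05, adjusted p = 0.00185) and Pfkm (-0.27 ± 0.05, adjusted p = 0.00213) were also lower.

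Bhlhe40 (0.62 ± 0.11, adjusted p = 0.00193), Ndrg1 (0.43 ± 0.07, adjusted p = 0.000647), the endoplasmic reticulum oxidase Ero1l (0.18 ± 0.06, adjusted p = 0.0388) and P4ha2 (0.16 ± 0.05, adjusted p = 0.0498) were higher with SWNT/CpG. The calls of Ero1l and P4ha2 are weak, since they were lost under 9 and 10 of 13 alternatives, with adjusted p-values of up to 0.201 and 0.269. Among the other pathway genes 10 were higher and 7 lower, and Vegfa was higher by 0.44 ± 0.05 (adjusted p = 5.12e-06) and Hif1a by 0.12 ± 0.04 (adjusted p = 0.0328). With run 2 alone fewer members passed in this comparison, and fewer of all genes did. Proliferation genes moved here too: 18 of 20 were lower with SWNT/CpG, and their summed level was 3438 to 3924 CPM against 4570 to 5356 CPM with CpG+SWNT/LP. Fibroblast and vascular markers summed to 11000 to 11950 CPM with SWNT/CpG, above the other groups. The part of either in these differences was not tested.

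**Figure D5:**
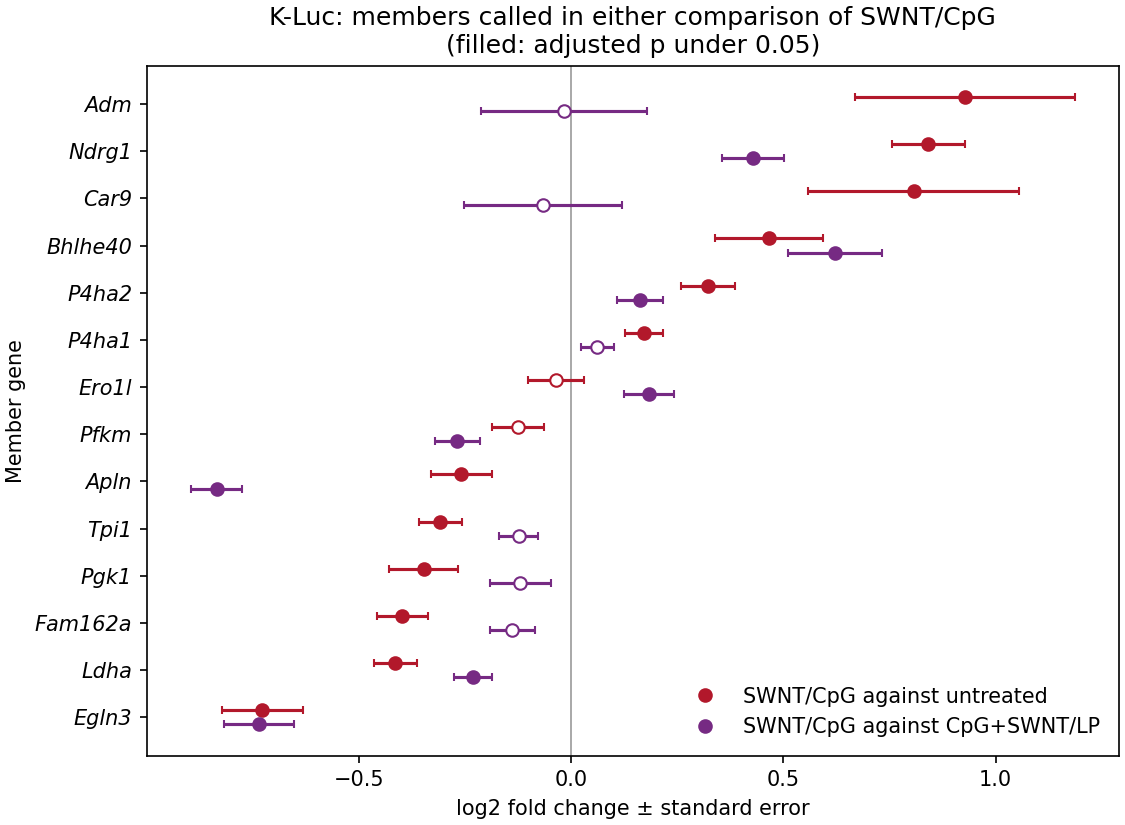
Log2 fold change (horizontal axis, bars are 1 standard error) of SWNT/CpG against untreated and against CpG+SWNT/LP in K-Luc, for each member called in either comparison (vertical axis), filled where the adjusted p is under 0.05. Egln3 is near -0.73 in both, Apln is at -0.26 against untreated and -0.83 against CpG+SWNT/LP, and Bhlhe40 and Ndrg1 are positive in both.

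In RAW-Blue cells no member passed the test for nanotubes. Averaged over CpG 0 of 35 were called in edgeR and 0 in DESeq2, with a median log2 fold change of -0.05, where 1.35% of all 11514 genes were called, 1.17% higher and 0.174% lower. These shares are at the adjusted threshold, so they are no background for the 10 members with an unadjusted p under 0.05. The 95% intervals of the members reached from -1.05 (P4ha2, a low gene here) to 0.34 (Kdm3a). For Pdk1 the interval ran from -0.22 to 0.04, for Pfkl from -0.29 to -0.01 and for Ldha from -0.21 to 0.11, each below the value of that gene in K-Luc.

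The untreated RAW-Blue pair spread widely. Ldha had 3187 and 2535 CPM untreated, around 2665 and 2585 CPM with SWNT/LP, 2486 and 2433 CPM with CpG, and 2365 and 2622 CPM with CpG+SWNT/LP. Pdk1 had 260 and 292 CPM untreated, 278 and 273.5 CPM with SWNT/LP, 225.5 and 247 CPM with CpG, and 199 and 218 CPM with CpG+SWNT/LP. Nanotubes alone and nanotubes on top of CpG each called 0 members in edgeR and DESeq2. Of all genes 0.478% (0.434% higher and 0.0434% lower) and 0.13% (0.122% higher and 0.00869% lower) were called in edgeR. An unadjusted p under 0.05 was found for 6 and 5 members, for which these shares are no background. With either untreated library left out, which leaves 1, the averaged effect did call members, most of them lower. Without untreated replicate 2 so did nanotubes alone. Calls over all genes also moved widely with 1 library left out, so these calls cannot be read as a result about the members.

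Other genes of the pathway did respond to nanotubes in RAW-Blue: 4 of 65 rose and none fell. They were Ier3 (0.57 ± 0.06, adjusted p = 0.00313), Hilpda, a lipid-droplet protein induced by hypoxia (0.84 ± 0.11, adjusted p = 0.00621), the haem oxygenase Hmox1 (0.33 ± 0.06, adjusted p = 0.0374) and Tfrc (0.42 ± 0.08, adjusted p = 0.0374). Hif1a had 0.19 ± 0.12, Arnt -0.03 ± 0.05, Vhl -0.08 ± 0.06, Hif1an -0.03 ± 0.07 and Egln2 0.02 ± 0.07, none of which passed.

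Members also fell with CpG in RAW-Blue. Averaged over nanotubes 16 of 35 fell and none rose, with a median log2 fold change of -0.19, where 18.7% of all genes were called, 9.94% lower and 8.8% higher. They were 1 of 3 genes of uptake and export (Slc2a3), 4 of 13 enzymes, 2 of 3 regulators, Egln1, and 8 of 15 other targets.

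Adm had 86.6 and 97.6 CPM untreated, 90.1 and 90.4 CPM with SWNT/LP, 68.6 and 61.2 CPM with CpG, and 46.0 and 49.8 CPM with CpG+SWNT/LP. Every library with CpG lay below every library without it, and the log2 fold change was -0.71 ± 0.07 (adjusted p = 0.000105). Ankrd37, an ankyrin-repeat protein induced by HIF, had 24.4 and 27.6 CPM untreated, 22.8 and 23.0 CPM with SWNT/LP, 14.58 and 14.62 CPM with CpG, and 10.6 and 13.4 CPM with CpG+SWNT/LP. It fell by 0.88 ± 0.09 (adjusted p = 0.00013), with the same separation.

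Pfkm had 56.0 and 55.7 CPM untreated, 47.0 and 45.5 CPM with SWNT/LP, 33.7 and 34.4 CPM with CpG, and 29.9 and 34.4 CPM with CpG+SWNT/LP. It fell by 0.62 ± 0.06 (adjusted p = 0.000127). Aldoc had 169 and 162.5 CPM untreated, 140.2 and 131 CPM with SWNT/LP, 102 and 115 CPM with CpG, and 94.2 and 107 CPM with CpG+SWNT/LP, and fell by 0.52 ± 0.06 (adjusted p = 0.00047). For both genes all libraries with CpG lay below all without it.

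The other members that fell were Bhlhe40 (-0.56), Bnip3 (-0.43), Egln1 (-0.33), Pdk1 (-0.31), Slc2a3 (-0.29), P4ha2 (-1.27), Pfkl (-0.28), Higd1a (-0.28), Ddit4 (-0.25), Gpi1 (-0.24), Pfkfb3 (-0.24) and Fam162a (-0.22), as log2 fold changes. Without nanotubes 7 members fell and none rose, where 10.8% of all genes were called (5.6% lower and 5.18% higher). With nanotubes 10 fell and none rose, where 4.82% were called (2.37% lower and 2.45% higher). These 2 comparisons share no library, though they share the fit's estimate of the spread. Called in both were 5 members, of 7 and of 10: Adm, Aldoc, Ankrd37, Bhlhe40 and Pfkm. In 28 of 35 members the fold change was negative in both.

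The number called in RAW-Blue rested on single libraries. Instead of 16 members, the averaged CpG effect called 24 without untreated replicate 2, 9 without CpG+SWNT/LP replicate 1 or SWNT/LP replicate 1, and 10 without CpG replicate 1, CpG replicate 2 or SWNT/LP replicate 2. CpG against untreated called 17 without untreated replicate 2 and 4 without CpG replicate 2. CpG+SWNT/LP against SWNT/LP called 2 or 3 without any 1 of its 4 libraries. The interaction of CpG and nanotubes called 0 members in edgeR and DESeq2, and 0% of all genes in edgeR. An unadjusted p under 0.05 was found for 2 members, for which that share is no background. Without untreated replicate 2, which leaves 1 untreated library, the interaction did call members. The number called over all genes also moved widely with 1 library left out, for the interaction and for the CpG comparisons above. Of the other pathway genes 21 of 65 fell and 8 rose with CpG, Vhl among the fallen (-0.20 ± 0.06, adjusted p = 0.0387). Of 20 proliferation genes 4 fell and 1 rose.

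With SWNT/CpG against untreated in RAW-Blue 15 members fell and 1 rose, with a median log2 fold change of -0.27, where 23.2% of all genes were called, 10.4% lower and 12.8% higher. The risen member was Ero1l, which helps form disulphide bonds, at 292 and 380.1 CPM untreated and 656 and 563 CPM with SWNT/CpG (0.86 ± 0.19, adjusted p = 0.0109). Ankrd37 fell to 10.5 and 10.2 CPM (-1.33 ± 0.12, adjusted p = 7.88e-05), and Adm to 50.8 and 45.9 CPM (-0.93 ± 0.09, adjusted p = 0.000129). In each of these 3 genes the 2 groups do not overlap. With 2 libraries against 2 such separation was common among the members. Its share over all genes was not counted, so it sets no gene apart.

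Pfkfb3, which makes the main activator of phosphofructokinase, had 129 and 134 CPM untreated and 104.1 and 103.1 CPM with SWNT/CpG (-0.35 ± 0.08, adjusted p = 0.0143). Gpi1, glucose phosphate isomerase, had 1044 and 903.5 CPM untreated and 781 and 762.5 CPM with SWNT/CpG (-0.34 ± 0.08, adjusted p = 0.0152). Egln1, the main HIF prolyl hydroxylase of oxygenated cells, had 177 and 173 CPM untreated and 139.9 and 132 CPM with SWNT/CpG (-0.36 ± 0.09, adjusted p = 0.0187). For all of them both SWNT/CpG libraries lay below both untreated ones.

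Hif1a rose with SWNT/CpG in RAW-Blue (0.65 ± 0.17, adjusted p = 0.0228) and Vhl fell (-0.29 ± 0.08, adjusted p = 0.0324), among 10 other pathway genes that rose and 19 that fell of 65. Of 20 proliferation genes 11 fell, with a summed level of 4387 to 4851 CPM against 5094 to 5776 CPM untreated, and the part of this in the members' fall was not tested. With either SWNT/CpG library left out, which leaves 1, fewer members were called, while calls over all genes also moved widely with 1 library left out. Against CpG+SWNT/LP no member passed in edgeR and 1 did in DESeq2. In edgeR 0.825% of all genes were called, 0.469% higher and 0.356% lower. An unadjusted p under 0.05 was found for 7 members in edgeR, for which these shares are no background.

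The difference between the lines was tested in 1 fit of all 24 libraries. The nanotube effect averaged over CpG was lower in RAW-Blue for 11 of 37 members and higher for none, where 0.929% of all 13350 genes were called, 0.21% lower and 0.719% higher, with a median difference of -0.32. Pdk1 differed by -0.58 ± 0.07 (adjusted p = 9.79e-05), Pfkl by -0.59 ± 0.08 (adjusted p = 0.000271) and Bnip3 by -0.62 ± 0.09 (adjusted p = 0.000442). The count of members rose without RAW-Blue untreated replicate 2, while calls over all genes also rose in some fits with 1 library left out. The members' count fell with run 2 alone, without either K-Luc untreated library or without RAW-Blue SWNT/LP replicate 2. It was 6 or 7 without K-Luc CpG replicate 2 or 3, K-Luc CpG+SWNT/LP replicate 1 or 3, RAW-Blue CpG replicate 1 or 2, RAW-Blue CpG+SWNT/LP replicate 1 or RAW-Blue SWNT/LP replicate 1.

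For CpG, 11 members had a higher and 5 a lower log2 fold change in RAW-Blue, where 32.9% of all genes were called, 17.4% higher and 15.4% lower. Pfkm, which rose in K-Luc and fell in RAW-Blue, differed by -0.76 ± 0.07 (adjusted p = 6.76e-08), and Adm, likewise, by -1.24 ± 0.17 (adjusted p = 6.86e-06). Ldha, which fell in K-Luc and did not pass in RAW-Blue, differed by 0.34 ± 0.08 (adjusted p = 0.00268). For SWNT/CpG against untreated, 13 members were lower and 1 higher in RAW-Blue, where 25.4% of all genes were called, 11.1% lower and 14.4% higher. Bhlhe40 differed by -1.25 ± 0.17 (adjusted p = 2.08e-05), Adm by -1.85 ± 0.26 (adjusted p = 1.5e-05) and Ero1l by 0.90 ± 0.19 (adjusted p = 0.00134). Without K-Luc untreated replicate 1, which leaves 1 such library, fewer members were called, while calls over all genes also moved widely with 1 library left out.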

How the data were processed

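Poly(A) RNA of 24 libraries was sequenced from a stranded kit, per the labels' protocols, and nanotubes were pelleted before RNA extraction. Alignment and counting by the authors involved TopHat2 2.0.14, HTSeq 0.6.0 and mm9, per the submitters' processing notes. What annotation, strand option and filters they chose is not given in the sources used here. Deposited read counts are raw, and deposited RPKM values, rounded by the authors to 1 decimal, served for levels between genes and lines.

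The test was edgeR 4.0.16 in R 4.3.3 (TMM, filterByExpr by group with minimum count 10 and minimum total 15, robust quasi-likelihood F test, p-values adjusted by Benjamini-Hochberg across every tested gene, with a threshold of 0.05). For K-Luc the terms were group and run (14 libraries, 12420 genes), for RAW-Blue group alone (10 libraries, 11514 genes), and for both lines together group and run (13350 genes). Averaged effects are the mean of an agent's effect with and without the other agent. A standard error is the absolute log2 fold change divided by the square root of F. Same-numbered libraries were taken as paired where every pair of 3 correlated over 0.1 in their deviations from the group means. Among the comparisons this held for K-Luc SWNT/CpG against CpG+SWNT/LP (0.501, 0.231 and 0.314). Run was not removed from these deviations, and replicate 1 is run 1 in both groups, so replicate 1 and run cannot be told apart there. The code was tested on simulated data. Alternatives tried were edgeR with the size factors of DESeq2, DESeq2 1.42.0 itself, no filter, a replicate block, no run term, run 2 alone, only the compared groups, and each library left out.

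Members and gene lists were chosen with earlier results of these data known, and CpG+SWNT/LP against CpG and against SWNT/LP were added after seeing the data. Per-library values are given for the 8 members with the smallest adjusted p for nanotubes in K-Luc and up to 4 more for each CpG and SWNT/CpG comparison, among called members with a mean of at least 1 CPM. Other members' libraries are given where a low level bears on their value. Of other pathway genes up to 4 per comparison and the HIF subunits and hydroxylases are named.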

Additional observations from a re-analysis of the deposited data

Results flagged for a closer look

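These differences between the lines passed the test of the difference itself, in the edgeR fit of all 24 libraries, and are given as the log2 effect in RAW-Blue minus that in K-Luc. Line, treatment time and plating cannot be told apart in any of them.

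With nanotubes averaged over CpG, 11 members had a lower effect in RAW-Blue. Among enzymes and regulators these were Pfkl (-0.59), Pdk1 (-0.58), Ldha (-0.37), Tpi1 (-0.34), Aldoa (-0.33) and Gpi1 (-0.32). The exporter Slc16a3 differed by -0.83. Among the other HIF targets Car9 differed by -1.11, Bnip3 by -0.62, Fam162a by -0.46 and Ak4 by -0.44.

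With CpG averaged over nanotubes, 5 members had a lower effect in RAW-Blue: Adm (-1.24), P4ha2 (-1.18), Pfkm (-0.76), Ndrg1 (-0.69) and Pfkfb3 (-0.23). The other 11 had a higher one. They were Slc16a3 (0.64), Ero1l (0.57), Eno1 (0.51), Ak4 (0.43), Pgam1 (0.40), Fam162a (0.35), Hk2 (0.35), Ldha (0.34), Pgk1 (0.30), Slc2a1 (0.29) and Tpi1 (0.26). Eno1, Pgk1 and Pgam1 share much of their transcript sequence with other genes.

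With SWNT/CpG against untreated, Ero1l had a higher effect in RAW-Blue (0.90). Lower ones were found for Adm (-1.85), P4ha2 (-1.74), Bhlhe40 (-1.25), Ankrd37 (-1.14), Car9 (-0.92), Ndrg1 (-0.84), Pfkm (-0.74), Bnip3 (-0.54), Pfkl (-0.35), Pdk1 (-0.33), Egln1 (-0.32), Kdm3a (-0.30) and P4ha1 (-0.25). P4ha2 and Car9 are low genes, P4ha2 in RAW-Blue and Car9 in both lines.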

How the results depend on the processing

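Of 297 member counts under an alternative, 237 were within 1.5 times the main count. Of 1907 values of named genes 1658 kept direction and call, 249 kept direction and lost the call, and 0 reversed. Only comparisons in which the named gene was called in the main fit were followed, so no value could gain a call. With only the groups compared, the counts were in K-Luc 0 for nanotubes alone, 2 with CpG present, 13 for CpG alone, 19 for SWNT/CpG against untreated and 16 against CpG+SWNT/LP, and in RAW-Blue 1 for nanotubes with CpG present, 0 for CpG alone, 17 for CpG with nanotubes, 6 for SWNT/CpG against untreated and 3 against CpG+SWNT/LP. With run 2 alone they were in K-Luc 1 for nanotubes alone, 0 with CpG present, 8 averaged and 5 for SWNT/CpG against CpG+SWNT/LP, and 5 for the nanotube difference between the lines. Without the run term they were 2 for K-Luc nanotubes with CpG present and 7 for the nanotube difference, and in DESeq2 7 for K-Luc nanotubes with CpG present and 1 for RAW-Blue SWNT/CpG against CpG+SWNT/LP. The cause of these shifts was not tested. Calls over all genes moved too. With only the groups compared they fell for K-Luc nanotubes alone and for CpG alone in both lines. They rose for RAW-Blue CpG with nanotubes and SWNT/CpG against CpG+SWNT/LP. With run 2 alone they fell for K-Luc nanotubes averaged and for the nanotube difference. Calls over all genes are not given here for these DESeq2 counts or those without the run term. These member counts alone are therefore no result about the members.

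With 1 library left out, K-Luc counts ran from 0 to 10 for nanotubes alone, 0 to 3 with CpG present, 12 to 17 averaged, 6 to 20 for CpG alone, 22 to 26 with nanotubes, 26 to 29 averaged, 0 to 0 for the interaction, 7 to 12 for SWNT/CpG against untreated and 6 to 7 against CpG+SWNT/LP. RAW-Blue counts ran from 0 to 11 for nanotubes alone, 0 to 0 with CpG present, 0 to 11 averaged, 4 to 17 for CpG alone, 2 to 3 with nanotubes, 9 to 24 averaged, 0 to 8 for the interaction, 7 to 23 for SWNT/CpG against untreated and 0 to 0 against CpG+SWNT/LP. Between the lines they ran from 34 to 35 for untreated levels, 5 to 18 for nanotubes, 12 to 17 for CpG and 9 to 17 for SWNT/CpG. Where a group was left with 1 library, that library is assumed to vary like the others. Calls over all genes moved widely between these fits too, so a changed member count alone is no result about the members.

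Same-numbered replicates did not all deviate together: 20 of 26 K-Luc pairs and 4 of 20 RAW-Blue pairs had a correlation over 0.1. Outside K-Luc SWNT/CpG against CpG+SWNT/LP the numbers were therefore not taken as pairing. In K-Luc 13 of 14 libraries correlated best with their own number, but all run 1 libraries are replicate 1. In RAW-Blue 10 of 10 did, but with 2 libraries per group the deviations mirror each other, and the median same-numbered correlation was 0.023. With the replicate block the K-Luc counts were 19 for nanotubes alone, 17 with CpG present, 25 averaged, 32 for CpG averaged and 15 for SWNT/CpG against CpG+SWNT/LP, and RAW-Blue CpG averaged gave 14. The block called 61, 201, 263, 7518 and 4009 of all genes in these K-Luc comparisons, in the same order. Over all genes, K-Luc nanotubes averaged called 70, from 33 with run 2 alone to 263 with the block, and RAW-Blue nanotubes averaged 155, from 89 with only the groups compared to 269 without the filter. Depth limits members near 1 CPM, Car9, Slc16a3 and Adm in K-Luc and P4ha2 in RAW-Blue.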
